A study of Mus musculus with 62 samples.

Results

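Nrf2, encoded by Nfe2l2, is a transcription factor that switches on genes against oxidative stress. Its transcript and those of 9 genes of its antioxidant program were followed in mouse hippocampus and in HT-22 cells: Nqo1, Hmox1, Gclm, Gclc, Txnrd1, Srxn1, Slc7a11, Prdx1 and Sod1. These 10 genes were picked by symbol from 53975 gene IDs. Each was found under 1 gene ID in all 31 long-RNA libraries, and all 10 passed the filter on low values in both systems.

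In resting cells Keap1, a substrate adaptor of the Cul3 ubiquitin ligase, marks Nrf2 protein for destruction. Oxidants and electrophiles modify Keap1, and Nrf2 then accumulates, pairs with a small Maf protein and binds antioxidant response elements in its target genes. Much of this control acts on the Nrf2 protein, which RNA does not measure. HT-22 cells are widely used for a form of oxidative death in which glutamate blocks cystine uptake through the transporter encoded by Slc7a11.

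The mouse groups compared hippocampus of APP NL-G-F mice, in which the mouse App gene carries a humanised amyloid beta sequence with familial Alzheimer mutations and is driven by its own promoter, with that of C57BL/6J mice, called WT. Left and right hippocampi of a mouse were pooled, with n = 3 for APP at each age (3, 6 and 12 months). WT had n = 2 at 3 months and n = 3 at the older ages. The submitters call the ages a stage before symptoms, the stage when symptoms appear and the terminal stage. HT-22, an immortalised mouse hippocampal cell line at passage 4, was treated for 24 h with an LNA, a modified antisense oligonucleotide. The LNA either targeted Hsf1, the heat shock factor (150 nM), or was a scramble (50 uM, the unit the labels give). The cells were then given amyloid beta 1-42 (Aβ42) or a control peptide of the reverse sequence, each at 30 uM in DMSO. All 14 HT-22 libraries thus come from cells given an LNA and a peptide. There were 4 libraries for each peptide with scramble LNA and 3 for each peptide with anti-Hsf1 LNA. The labels call them biological replicates without saying whether they were separate cultures, so p-values measure the spread between these samples, which may be technical.

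Relative depth, the ratio of coverage to FPKM, was between 1.42 and 3.04 for the hippocampus and between 0.724 and 2.60 for HT-22 cells. Levels are given as scaled TPM: transcripts per unit of total RNA and length, divided by a factor per library that brings the median gene of each library to a common level. Tests were made with limma on log2(scaled TPM + 1), and a gene is called where its p, adjusted over all genes tested, is below 0.05. In the hippocampus all 8 neuron markers were detected, with summed scaled TPM of 1696 to 2348. In HT-22 cells 7 of the 8 stayed below 1 in every library, with Snap25, Rbfox3, Syt1 and Gad1 at 0, so the line carried almost none of the mature neuron transcripts. The LNA's target, Hsf1, differed between anti-Hsf1 and scramble by -0.37 on the log2 scale with Aβ42 (47.2 ± 4.07 scaled TPM, n = 3, against 61.6 ± 9.31, n = 4, mean ± SD) and by -0.15 with reverse peptide. Neither difference passed limma's test (adjusted p = 0.520 and 0.959), so anti-Hsf1 below names what the labels say.

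To show the letters of the motif that Nrf2 is known to bind, the antioxidant response element TGACNNNGC was searched on both strands of the RefSeq promoters of these genes (GRCm38.p6, from 250 bases before to 50 bases after each start). The table held 8 of the 10 genes, all but Hmox1 and Gclc. A match was carried by 6 of these 8 (75%), all but Nqo1 and Slc7a11, against 14% of the 27025 genes in the table. Of the 64 pathway genes listed for comparison, 55 were in the table and 25.5% carried one. The matches that lie before the start are printed along the gene's strand, 5′ to 3′, with the match in capitals.
Gclm: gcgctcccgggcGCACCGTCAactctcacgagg
Nfe2l2: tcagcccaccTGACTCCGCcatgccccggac
Prdx1: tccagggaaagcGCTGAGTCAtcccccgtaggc
Sod1: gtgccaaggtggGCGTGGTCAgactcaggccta
Txnrd1: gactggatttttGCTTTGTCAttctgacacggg
The Gclm stretch lies at chr3:122245411-122245443 on the plus strand, 134 bases before the start. That of Nfe2l2 lies at chr2:75704883-75704913 on the minus strand, 240 bases before, and reads in the sense direction. The Prdx1 stretch lies at chr4:116685454-116685486 (plus strand, 133 bases before), and its match holds the AP-1 letters TGACTCA on the other strand. Those of Sod1 and Txnrd1 lie at chr16:90220694-90220726 and chr10:82859102-82859134, both on the plus strand, 56 and 92 bases before their starts. Txnrd1 has 3 promoters in the table, and the one with the match starts inside the gene's span (chr10:82833951-82897712), downstream of its first base. Counted by promoter, 6 of 10 (60%) held a match, against 12.4% of 32851. In Gclm, Prdx1, Sod1 and Txnrd1 the match reads on the strand opposite to the gene. The sixth gene, Srxn1, has its match after the start. A match describes letters, not binding. The heat shock element GAANNTTC, the motif of Hsf1, was found in 1 of the 8 genes, Sod1, against 9.04% of genes in the table.
Sod1, heat shock element: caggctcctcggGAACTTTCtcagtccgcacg
It lies at chr16:90220562-90220593 on the plus strand, 188 bases before the start.

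In HT-22 cells most of the antioxidant genes were high together in 3 libraries, all with scramble LNA and from both peptides. These were Aβ42 with scramble replicates 3 and 4, and reverse peptide with scramble replicate 4. Hmox1 (ENSMUSG00000005413, chr8:75093621-75100589 in GRCm38, plus strand), which breaks down haem, stood furthest above its level elsewhere. In these 3 libraries, in that order, it stood at 274.3, 340.5 and 362.5 scaled TPM. Its other 11 values ran from 46.1 to 61.1, with Aβ42 and scramble replicates 1 and 2 at 47.4 and 48.0. The scramble groups therefore each held libraries at both levels, and all 6 anti-Hsf1 libraries were at the lower one.

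Nfe2l2 itself was at 84.0, 93.2 and 101.4 scaled TPM in the same 3 libraries. Elsewhere it stayed between 43.5 and 53.3, a narrow range over both peptides and both LNAs. Nqo1, a quinone reductase that is the classic reporter of Nrf2 activity, was at 118.3, 115.9 and 141.9 against 34.3 to 48.8 in the other 11. Txnrd1, cytosolic thioredoxin reductase, was at 327.2, 328.0 and 353.4 against 114.5 to 143.2. For Nfe2l2, Nqo1, Hmox1 and Txnrd1 no value of the 3 libraries overlapped the other 11. These libraries were singled out because members were high in them, and the share of all genes that separate them was not counted.

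Genes of glutathione synthesis were high in the same libraries. Gclc, the catalytic subunit of glutamate-cysteine ligase, was at 55.7, 66.5 and 62.1 scaled TPM against 33.1 to 43.4. Gclm, its modifier subunit, was at 43.7, 42.6 and 43.97 against 28.8 to 32.6. Gclm overlaps Gm17494 on the opposite strand (116.1 scaled TPM on average in HT-22), so reads there could belong to either. Slc7a11, the cystine carrier, was the lowest of the 10 genes in this line, at 5.94, 7.27 and 7.36 against 2.14 to 3.02. Srxn1, sulfiredoxin, which repairs overoxidised peroxiredoxins, was at 87.3, 88.5 and 100.3 against 24.0 to 44.5. It also had 3 low values: 24.0 in reverse scramble replicate 1, 24.7 in reverse anti-Hsf1 replicate 3 and 27.6 in Aβ42 anti-Hsf1 replicate 3. The last of these libraries also held the lowest value of the 14 for Nqo1 (34.3) and Prdx1 (231.3).

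The 2 most abundant members did not separate these libraries. Prdx1, a peroxiredoxin that reduces hydrogen peroxide, was at 297.1, 306.1 and 367.5 scaled TPM, and the other 11 values ran from 231.3 to 312.0. Sod1, cytosolic superoxide dismutase, was at 157.2, 153.6 and 189.4, inside the range of the other 11 (123.0 to 218.4).

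**Figure D1:**
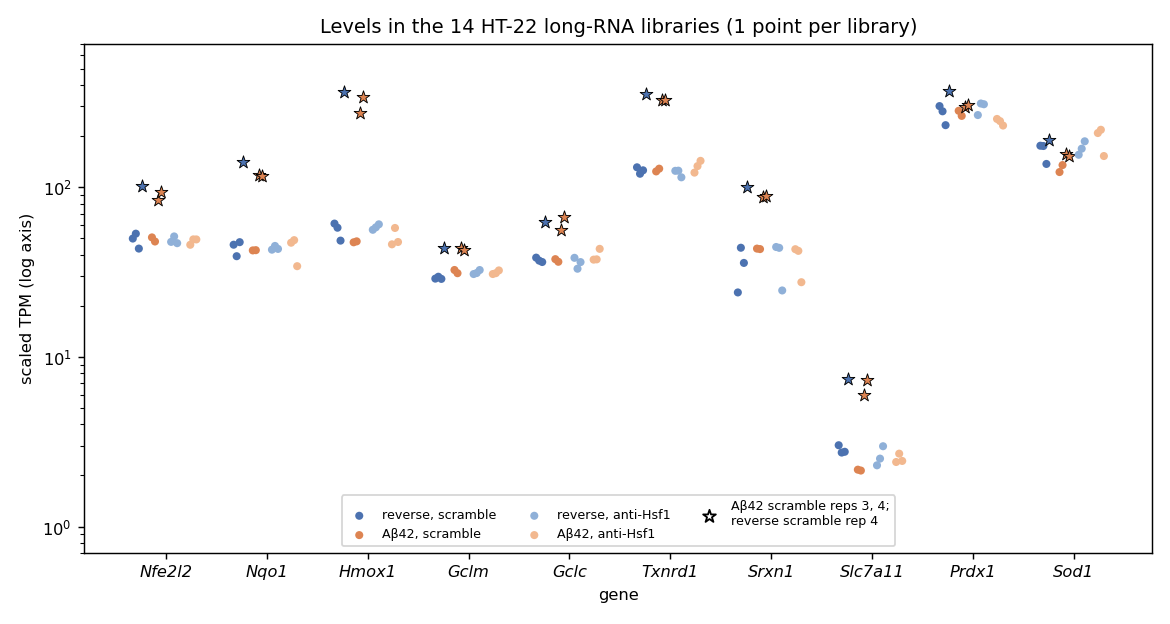
Scaled TPM (log axis) of the 10 genes in the 14 HT-22 libraries, 1 point per library, coloured by peptide and LNA; stars mark Aβ42 with scramble replicates 3 and 4 and reverse peptide with scramble replicate 4. The stars mix with the circles for Prdx1 and Sod1 and lie above them for the other genes, widest for Hmox1 (274.3 to 362.5 against 46.1 to 61.1).

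Against the median of the 14 libraries, 6 of 10 members were at least 1.5 times higher in Aβ42 scramble replicate 3, where 11.6% of all 17224 genes tested were. In Aβ42 scramble replicate 4 the count was 7 of 10 (11.2% of all genes), and in reverse scramble replicate 4 it was also 7 of 10 (10.9%). None of the members reached that ratio in any of the other 11 libraries. Ratios here are of scaled TPM + 1. Gclm, Prdx1 and Sod1 were under the ratio in all 3 libraries, and Gclc also in Aβ42 scramble replicate 3. In the 3 libraries, in the same order, 12.9%, 14.5% and 13.9% of genes were lower than the median by at least 1.5 times, and 0 members were.

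Of 64 pathway genes listed beside the members, 62 were tested in HT-22 cells, and 20, 21 and 21 of them were at least 1.5 times higher in these 3 libraries, against 0 to 2 in each of the other 11. Among Nrf2's partners, Maff, a small Maf protein, was at 61.1, 65.8 and 57.9 scaled TPM against 3.11 to 8.01. Mafk and Mafg were higher too, at 49.5, 55.5 and 48.5, and at 89.5, 108.7 and 90.8 respectively. Keap1, which holds Nrf2 down, did not separate the libraries: it was at 24.7, 24.1 and 24.8 among values of 21.4 to 28.9.

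Slc3a2, the heavy chain that carries Slc7a11 to the cell surface, was at 284.2, 293.5 and 310.3 scaled TPM against 87.0 to 103.4. Chac1, which degrades glutathione, was at 94.0, 101.6 and 95.2 against 10.6 to 15.2. Sesn2, a stress protein, was at 56.3, 54.6 and 54.1 against 12.2 to 20.5. Osgin1, an oxidative stress growth inhibitor, was at 19.9, 16.7 and 20.7 against 3.42 to 6.64. In these 4 genes no value of the 3 libraries overlapped the rest. They were named after their values were seen, and the share of all genes that separate these libraries was not counted.

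Txnip, which binds and inhibits thioredoxin, went the other way, at 22.3, 22.4 and 22.1 scaled TPM against 70.3 to 116.9 elsewhere. Fth1, the ferritin heavy chain, which stores iron, was at 1192, 1177 and 1558 among values of 1167 to 1830 and so did not separate them. Idh1, Cat and Gstm1 of the pathway lists also ran against Nfe2l2 over the 14 libraries. Their Pearson r of log2(scaled TPM + 1) was -0.90, -0.77 and -0.76. These values rest on the 3 libraries: over the other 11 they were -0.17, 0.17 and 0.60. The other pathway genes are in the plot of ratios to the library median.

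**Figure D2:**
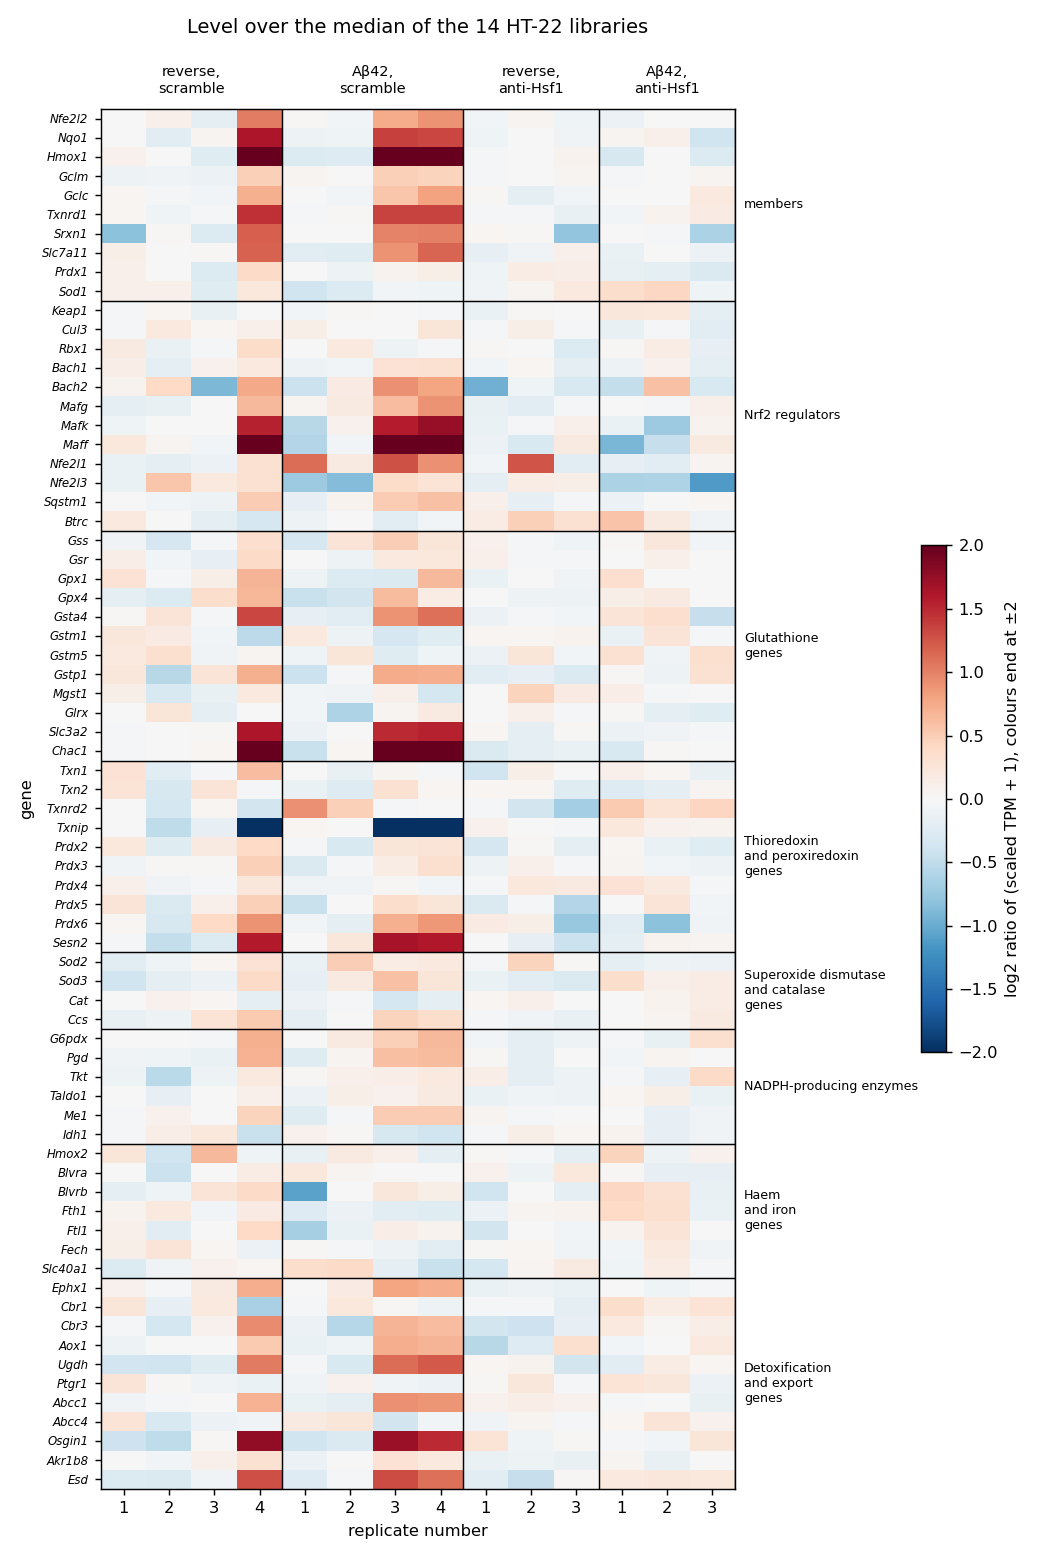
Log2 ratio of scaled TPM + 1 to the median of the 14 HT-22 libraries for the 10 members and 62 pathway genes (rows, grouped by list) in each library (columns, by peptide, LNA and replicate number). Red columns appear at Aβ42 scramble replicates 3 and 4 and reverse scramble replicate 4, where 6, 7 and 7 of 10 members were at least 1.5 times higher, and the row of Txnip is blue there.

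Other features moved with these 3 libraries. Of the 7 immediate-early genes tested (fast transcripts that follow many stimuli, serum and stress among them), all 7 were at least 1.5 times higher in each of the 3, against 0 or 1 in the other 11. Egr1 was at 217.1, 238.5 and 322.5 scaled TPM against 24.3 to 41.9, and Nr4a1 at 205.2, 223.6 and 208.9 against 0.958 to 6.98. The 8 listed immediate-early genes summed to 64.2 to 1068 with Aβ42 and scramble and 91.3 to 1129 with reverse peptide and scramble. With anti-Hsf1 LNA they summed to 82.6 to 87.2 with Aβ42 and 100.1 to 107.1 with reverse peptide, Arc being at 0. Relative depth was 1.64, 1.20 and 2.60 in the 3 libraries, against 0.724 to 1.21 elsewhere. The part of depth or of immediate-early transcription in the members' levels was not tested.

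The genes whose pattern was most like that of Nfe2l2 over the 14 HT-22 libraries, by Pearson r of log2(scaled TPM + 1), were Hmox1, Tiparp, Egr3, Klf10 and Ppp1r15b, all at r = 0.98. These values rest on the 3 libraries: over the other 11 the same r was 0.40 for Hmox1, 0.48 for Tiparp, 0.31 for Egr3, 0.46 for Klf10 and 0.48 for Ppp1r15b. Over the 11 libraries no gene of 11543 reached r = 0.9, whereas 687 (5.95%) did over the 14. The likeness of the members over 14 libraries was thus shared with many other genes, and it is given only as a description.

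The HT-22 contrasts share groups, so they are not independent of each other. The test of the peptide gave no call among the members. Aβ42 against reverse peptide under scramble LNA had 0 of 10 members called, with 0% of the 17224 genes called by limma at adjusted p below 0.05. At an unadjusted p below 0.05 there were 866 genes and 0 members. The members' median log2 difference was 0.18, against 0.00 for all genes, and Srxn1 had the highest, at 0.47 (SE 0.39, adjusted p = 0.954). Under anti-Hsf1 LNA the contrast again called 0 members and 0% of genes (790 genes and 0 members at an unadjusted p below 0.05). None of the 3 libraries is in either group, but the SE comes from 1 fit over all groups, so their spread enters it. The difference of Hmox1 was -0.21 with SE 0.80, and SE 0.11 in a fit without the 3 libraries. That fit, added after seeing the data, called 4 genes and 0 members, with 1591 genes at an unadjusted p below 0.05. In it Prdx1 was at -0.28 (SE 0.11, limma adjusted p = 0.504). The members' median was -0.01 in both fits. Hmox1 was at 46.1, 57.6 and 47.6 scaled TPM with Aβ42 and 56.2, 58.1 and 60.5 with reverse peptide, which overlap, and Nfe2l2 at 45.8, 49.3 and 49.3 against 47.7, 51.3 and 46.8.

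With Aβ42, 0 of 10 members were called between anti-Hsf1 and scramble, where 0.0232% of genes were called (4 genes, all higher, with 1554 genes and 1 member at an unadjusted p below 0.05). The difference of Hmox1 was -1.26 (SE 0.75, limma adjusted p = 0.574), that of Srxn1 -0.73 (SE 0.42) and that of Nqo1 -0.71 (SE 0.44, adjusted p = 0.579), on the log2(scaled TPM + 1) scale. The members' median was -0.46 and that of all genes 0.00. The 3 libraries are all in the scramble groups and were singled out because members were high in them, so leaving them out had to bring these differences nearer to 0, and the values without them are a description. Fitted so, Hmox1 was at 0.07 (SE 0.12), Nqo1 at 0.01 (SE 0.14) and Nfe2l2 at -0.03 (SE 0.10), and the members' median was 0.04.

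Sod1 was the member with an unadjusted p below 0.05 in that contrast. With Aβ42 it stood at 208.9, 218.4 and 152.9 scaled TPM under anti-Hsf1 and 123.0, 135.3, 157.2 and 153.6 under scramble, and the groups overlapped through anti-Hsf1 replicate 3. Its difference was 0.43 (SE 0.15, limma adjusted p = 0.481), and 0.56 (SE 0.17, adjusted p = 0.475) without the 3 libraries. With reverse peptide it was 0.01 (SE 0.15, adjusted p = 0.990), at 155.6, 169.0 and 186.8 under anti-Hsf1 and 175.9, 175.2, 137.3 and 189.4 under scramble. The last 650 bases of Sod1 overlap Scaf4 on the opposite strand (46.8 scaled TPM on average in HT-22). The library kit named in the labels is not described there as keeping strand, so reads in the overlap cannot be assigned. The longest transcript of Sod1 has 641 bases. With Aβ42, coding genes of at most 1000 bases had a median difference of 0.18 (662 genes), against -0.05 for those over 4000 bases. For the short genes it was -0.18 with reverse peptide and 0.33 in the interaction of peptide and LNA. The part of transcript length in the values of Sod1 was not tested.

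With reverse peptide, anti-Hsf1 against scramble also called 0 members, at 0% of genes called (621 genes and 0 members at an unadjusted p below 0.05), with a members' median of -0.27. Without the 3 libraries the median was 0.03. The interaction of peptide and LNA called 0 members and 0% of genes by limma, with 892 genes and 0 members at an unadjusted p below 0.05, and Sod1 stood at 0.42 (SE 0.21, adjusted p = 0.978). None of the 62 pathway genes tested was called in any of these 5 contrasts.

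**Figure D3:**
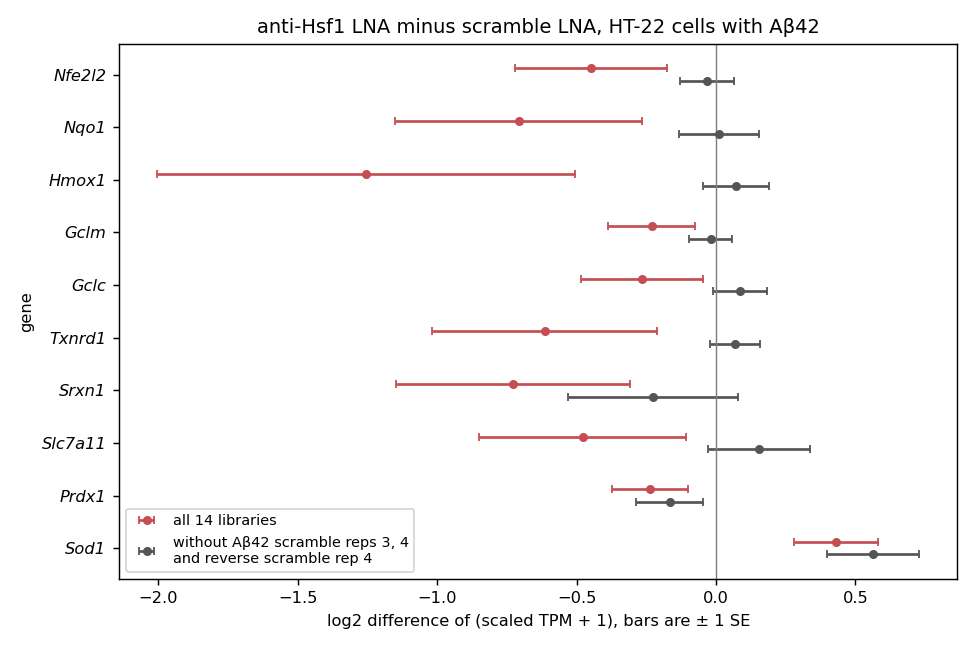
Log2 difference between anti-Hsf1 and scramble LNA in HT-22 cells with Aβ42 for each of the 10 genes, with ± 1 SE, in the fit of all 14 libraries and in the fit without Aβ42 scramble replicates 3 and 4 and reverse scramble replicate 4. Hmox1 lies at -1.26 in the first and 0.07 in the second, and Sod1 lies above 0 in both.

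Scaling decided how this contrast read. In the Aβ42 anti-Hsf1 libraries the noncoding Gm23935 held 15.5% to 44.3% of TPM, against 5.38% to 13.0% in the other HT-22 groups, and on TPM as deposited the median of all genes was -0.62 between anti-Hsf1 and scramble. On that scale 9 of 10 members were called, all lower, with 26 genes higher and 8740 lower. Their median of -1.07 includes that shift.

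In the hippocampus the order of the members differed from that in HT-22 cells. TPM is a level per transcript length, so levels can be set side by side between genes, but the systems were scaled separately and only the order is compared. Sod1 led at 106.7 ± 22.4 scaled TPM (SD over the 17 libraries), followed by Prdx1 at 32.4 ± 7.93. Srxn1 at 21.9 ± 5.50, Txnrd1 at 19.2 ± 3.34, Gclc at 16.3 ± 0.798 and Slc7a11 at 16.3 ± 2.87 did not differ from their neighbours in this order beyond their spread. Gclm stood at 12.4 ± 1.34 and Nfe2l2 at 8.42 ± 1.33, and Nqo1 at 3.29 ± 1.09 and Hmox1 at 3.09 ± 1.15 closed the order. In HT-22 cells the medians ran from Prdx1 at 281.7, Sod1 at 163.1 and Txnrd1 at 127.4 through Hmox1 at 57.7, Nfe2l2 at 49.6 and Nqo1 at 45.5 to Gclm at 31.2 and Slc7a11 at 2.71. Hmox1 and Nqo1 thus ranked last in the tissue and in the middle in the cells, and Slc7a11 last in the cells alone.

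**Figure D4:**
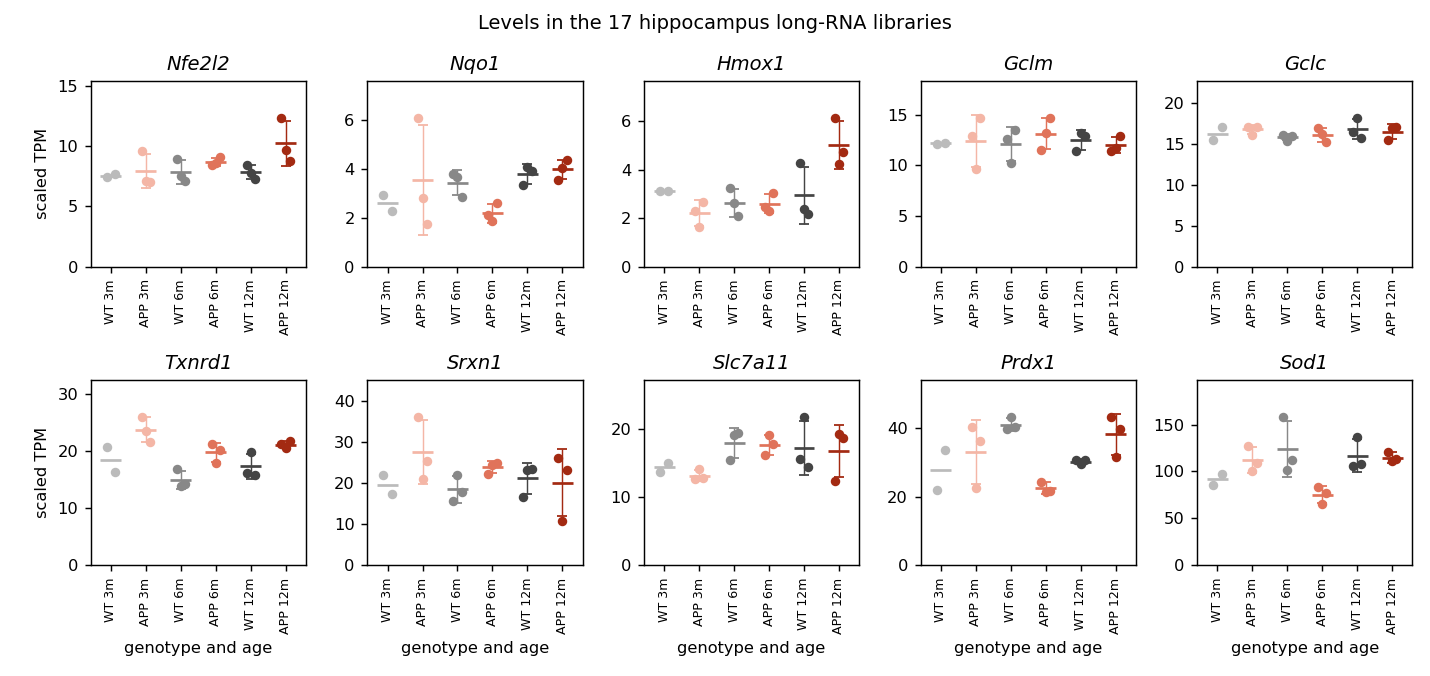
Scaled TPM of the 10 genes in the 17 hippocampus libraries by genotype and age, 1 point per mouse, with the group mean as a line and ± 1 SD for groups of 3. Prdx1 and Sod1 are lower in APP at 6 months than in WT at 6 months, which does not hold for Sod1 on TPM as deposited (0.02), and Hmox1 in APP at 12 months (4.22 to 6.14) lies above APP at 3 months (1.63 to 2.67).

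At 6 months Prdx1 and Sod1, which remove peroxide and superoxide, were lower in APP mice on scaled TPM, though Sod1 not on TPM as deposited. Prdx1 (ENSMUSG00000028691, chr4:116685544-116700822, plus strand) and Sod1 (ENSMUSG00000022982, chr16:90220754-90226329, plus strand) are protein-coding genes, given here over their whole span in GRCm38. Prdx1 was at 24.4, 21.5 and 21.7 scaled TPM in APP and 39.7, 43.2 and 40.2 in WT, with no overlap. Sod1 was at 83.7, 65.8 and 76.5 in APP and 158.4, 101.8 and 112.0 in WT, and its 3 APP values were the lowest of all 17 mice. Its last 650 bases overlap Scaf4 (17.5 scaled TPM on average in the hippocampus), and reads there cannot be assigned. Prdx1 fell by 0.84 on the log2 scale (SE 0.19, limma adjusted p = 0.0386), which is 0.559 of WT, and Sod1 fell by 0.69 (SE 0.16, adjusted p = 0.0414), which is 0.619 of WT. In all, 2 of 10 members were called, both lower, where 1.71% of 17767 genes were called and 1.28% were called lower. Of the 304 genes called, 76 were higher and 228 lower, against 160 and 190 with quantile normalisation. The members' median difference was 0.00, and that of all genes was also near 0. RNA from bulk tissue cannot tell fewer cells of a type from less RNA per cell.

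The other 8 members were not called at 6 months. Nqo1 was at 2.09, 1.84 and 2.59 in APP and 3.80, 3.66 and 2.85 in WT, without overlap, and its difference of -0.48 (SE 0.25) had a limma adjusted p of 0.354. Txnrd1 was at 21.2, 17.96 and 20.1 in APP and 16.8, 13.8 and 14.2 in WT, with a difference of 0.38 (SE 0.12, adjusted p = 0.109). Of the glutathione synthesis genes, Gclc differed by 0.02 (SE 0.09) and Gclm by 0.11 (SE 0.14), and the cystine carrier Slc7a11 by -0.02 (SE 0.17). Gclm overlaps Gm17494 on the opposite strand, at 43.4 scaled TPM in the hippocampus, so reads there could belong to either. Nfe2l2 differed by 0.14 (SE 0.14) and Hmox1 by -0.01 (SE 0.21).

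Among 60 pathway genes tested in the hippocampus, 2 were called at 6 months, both lower in APP, a share close to the 1.71% of all genes called (1.28% lower), so the count is no result about the pathway. Gpx4, the enzyme that reduces lipid peroxides, was at 29.7 ± 3.51 scaled TPM in APP and 64.7 ± 4.00 in WT (SD, n = 3 each), with a difference of -1.10 (SE 0.18, limma adjusted p = 0.00823). Htatip2, an oxidoreductase, was at 2.05 ± 0.533 against 3.78 ± 0.338, with a difference of -0.66 (SE 0.15, adjusted p = 0.0395). The medians of the thioredoxin and peroxiredoxin list and of the glutathione list were -0.24 and -0.23, with 3 of 10 and 3 of 13 genes above 0, while that of all genes was near 0. Of the 6 NADPH-producing enzymes none was above 0 (median -0.15), and none was called.

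Several features moved with the 6 month groups. Coding genes whose longest transcript is at most 1000 bases had a median difference of -0.43 (677 genes, 60 called, all 60 lower), against 0.10 for those over 4000 bases (4728 genes, 56 called, 7 lower). The longest transcript of Sod1 has 641 bases and that of Prdx1 2294. The 6 choroid plexus markers summed to 39.1 to 911 in APP and 1141 to 1359 in WT, with 0 of 6 called. The 5 blood markers summed to 90.7 to 137.4 in APP and 175.3 to 226.9 in WT, without overlap, with 1 of 5 called, lower (median -0.62). The part of transcript length, choroid plexus or blood in the result was not tested. Of Xist and 4 Y-linked genes, the 4 Y-linked ones were below 1 in every APP library and in WT at 3 months, and 1 of the 5 was below 1 in WT at 6 and at 12 months. All 5 were called between APP and WT at 6 and at 12 months, 1 of them higher in APP, and 0 at 3 months. So at 6 and 12 months genotype cannot be told apart from sex, which these genes mark.

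The calls at 6 months lie near the threshold. Leaving out 1 library at a time, Prdx1 had a limma adjusted p from 0.0129 to 0.118 and Sod1 from 0.0296 to 0.150, and each was lost in 10 of 17 fits, although the direction held in all 17. Prdx1 was lost without any 1 of the 6 libraries of that age, APP 12 month replicate 3 or any 1 of the WT 12 month libraries. Sod1 was lost when any 1 of these was left out: replicate 3 of APP at 3 months, replicates 2 and 3 of APP at 6 months, the 3 libraries of APP at 12 months, and replicates 1 and 3 of WT at 6 and at 12 months. On TPM as deposited, where the median of all genes was 0.60, Prdx1 was at -0.14 (adjusted p = 0.577) and Sod1 at 0.02 (adjusted p = 0.933), and 6 other members were called higher, among 10267 genes higher and 72 lower. Over all alternatives the adjusted p ran from 0.0129 to 0.577 for Prdx1 and from 0.0296 to 0.933 for Sod1.

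At 3 months no member was called between APP and WT (0 of 10, with 0.304% of genes called by limma, and 1 member and 2378 genes at an unadjusted p below 0.05). Prdx1 differed by 0.23 (SE 0.21, adjusted p = 0.709) and Sod1 by 0.29 (SE 0.18, adjusted p = 0.531). Prdx1 was at 40.4, 22.5 and 36.2 scaled TPM in APP and 21.9 and 33.6 in WT, which overlap. The member past the unadjusted threshold was Txnrd1, at 26.0, 23.4 and 21.6 in APP and 20.6 and 16.3 in WT, with a difference of 0.35 (SE 0.13, adjusted p = 0.261). Nqo1 spread widely in APP, at 6.07, 2.78 and 1.76, around the WT values of 2.94 and 2.25. Srxn1 was at 36.2, 21.1 and 25.4 in APP and 21.98 and 17.4 in WT, which overlap, with a difference of 0.44 (SE 0.30).

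At 12 months 0 of 10 members were called, where 0.433% of genes were called by limma (1249 genes and 3 members at an unadjusted p below 0.05). Those 3 were higher in APP. Hmox1 was at 6.14, 4.22 and 4.74 scaled TPM in APP and 4.29, 2.39 and 2.15 in WT, with a difference of 0.64 (SE 0.21, adjusted p = 0.391). Nfe2l2 was at 12.4, 9.67 and 8.76 in APP and 8.48, 7.81 and 7.30 in WT, with a difference of 0.34 (SE 0.14, adjusted p = 0.603). Txnrd1 was at 21.2, 20.5 and 21.6 in APP and 16.2, 19.8 and 15.8 in WT, with a difference of 0.28 (SE 0.12, adjusted p = 0.623). The ranges overlapped for Hmox1 through WT replicate 1 and did not for Nfe2l2 and Txnrd1. Prdx1 and Sod1 differed by 0.32 (SE 0.19) and -0.02 (SE 0.16). Srxn1 in APP held 1 low value, 10.9 in replicate 2, beside 26.2 and 23.3. In the same contrast 5 of 8 microglia markers were called higher (median 1.05), with sums of 330.4 to 419.2 in APP and 136.5 to 162.7 in WT. Of 7 astrocyte markers 1 was called, higher (sums of 1382 to 1551 against 1032 to 1081), and the choroid plexus markers summed to 1439 to 1663 against 424.2 to 1312, with 0 of 6 called (median 0.96). Their part in the members' values was not tested.

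Over the mean of the 3 ages, 0 of 10 members were called (0.242% of genes, limma, with 2180 genes and 1 member at an unadjusted p below 0.05). Txnrd1 had the lowest p, with a difference of 0.34 (SE 0.07, adjusted p = 0.0687), and its APP values lay above the WT values at each age. It was called without APP 3 month replicate 3 (adjusted p = 0.0434) and on TPM as deposited (adjusted p = 0.00653, where the median of all genes was 0.18). The next was Nfe2l2, at 0.17 (SE 0.08, adjusted p = 0.422). Xist and the 4 Y-linked genes were all called in this mean of ages, so genotype cannot be told apart from sex in it.

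**Figure D5:**
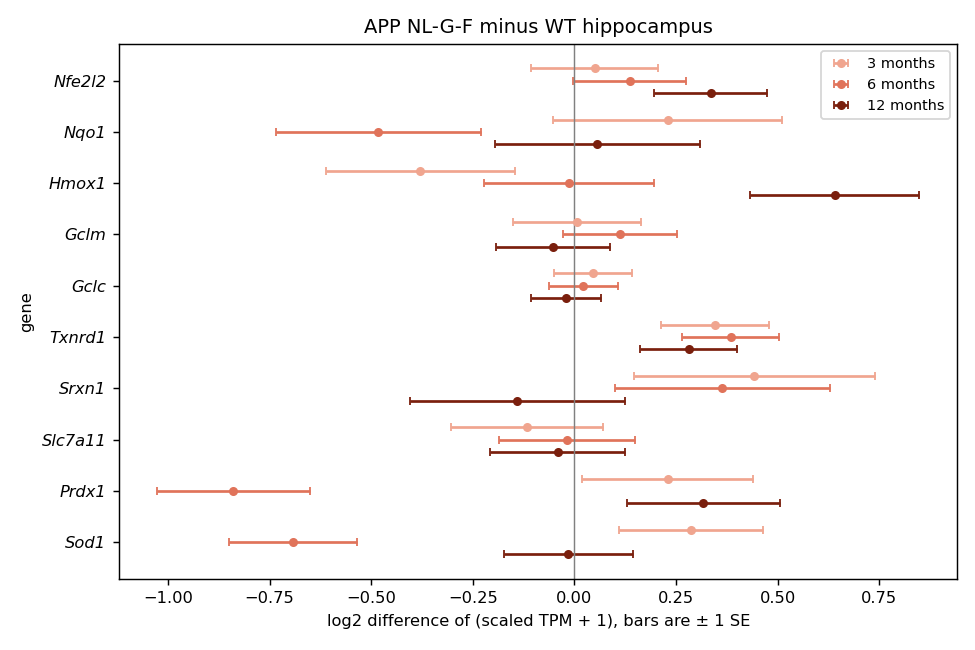
Log2 difference between APP and WT hippocampus (± 1 SE) for the 10 genes at 3, 6 and 12 months. Txnrd1 lies to the right of 0 at the 3 ages (0.35, 0.38 and 0.28), while Prdx1 and Sod1 lie far to the left at 6 months alone (-0.84 and -0.69, against -0.14 and 0.02 on TPM as deposited).

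The difference of the APP effect between ages was tested as an interaction and called 0 of 10 members, where 0.467% of genes were called by limma (2847 genes and 3 members at an unadjusted p below 0.05). The adjusted p was 0.0788 for Prdx1, 0.107 for Sod1 and 0.198 for Hmox1. The APP against WT differences of Prdx1 and Sod1 are therefore not shown to change between ages. Prdx1 was called without APP 3 month replicate 2 (adjusted p = 0.0173, in a range of 0.0173 to 0.263 over all alternatives), and Sod1 under none (0.0775 to 0.923). On TPM as deposited 6 other members were called (Nfe2l2, Hmox1, Gclm, Gclc, Txnrd1 and Slc7a11). Xist and the Y-linked genes were all called in this interaction, so it cannot tell age apart from sex.

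Within APP mice, Hmox1 rose from 3 to 12 months. It was at 2.31, 1.63 and 2.67 scaled TPM at 3 months, 2.47, 2.28 and 3.03 at 6 months and 6.14, 4.22 and 4.74 at 12 months, and the 12 month values overlapped neither younger group. The rise from 3 to 12 months was 0.91 (SE 0.21, limma adjusted p = 0.0280), a fold of 1.88 on the log2(scaled TPM + 1) scale. It was the 1 member called of 10, where 3.27% of genes were called and 1.9% were called higher (338 genes higher and 243 lower, against 205 and 81 on TPM as deposited). Nfe2l2 differed by 0.33 (SE 0.14, adjusted p = 0.237) and Srxn1 by -0.49 (SE 0.26, adjusted p = 0.387). In WT from 6 to 12 months Hmox1 differed by 0.09 (SE 0.21, adjusted p = 0.965), and 0 of 10 members were called, at 0% of genes by limma (1215 genes and 1 member at an unadjusted p below 0.05). That member was Prdx1, at 39.7, 43.2 and 40.2 at 6 months and 30.6, 29.5 and 30.6 at 12 months, with a difference of -0.43 (SE 0.19, adjusted p = 0.726). This contrast shares the WT 6 month libraries with the comparison of APP and WT at 6 months. The APP and WT age contrasts span different ages and were not compared.

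Markers of other cells moved with the same contrast. In APP mice from 3 to 12 months, 5 of 8 microglia markers were called higher, with a median of 1.08, and their sum ran from 123.6 to 132.5 at 3 months and from 330.4 to 419.2 at 12 months. Microglia and macrophages are among the cells known to express Hmox1. Of 7 astrocyte markers 2 were called higher (median 0.37), and of 5 oligodendrocyte markers 4 were called, all lower (median -0.89). Their part in the rise of Hmox1 was not tested. Leaving out APP 3 month replicate 1 or 2, or any of the 3 APP 12 month libraries, ended the call for Hmox1, at adjusted p of 0.0566 to 0.127 (0.0159 to 0.127 over all alternatives). Quantile normalisation (adjusted p = 0.0537) and a fit of the compared groups alone (adjusted p = 0.0912) also ended it.

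Of the 60 pathway genes, 2 were called between 3 and 12 months in APP mice, both higher, a share close to the 3.27% of all genes called, so the count is no result about the pathway. Prdx6, a peroxiredoxin that also acts on phospholipids, was at 57.5 ± 4.72 scaled TPM at 3 months and 101 ± 31.5 at 12 months (SD, n = 3 each), with a difference of 0.76 (SE 0.19, limma adjusted p = 0.0467). Cbr3, a carbonyl reductase, was at 3.40 ± 1.40 and 6.13 ± 0.133, with a difference of 0.74 (SE 0.18, adjusted p = 0.0398). None of the 60 was called between APP and WT at 3 or 12 months, over the mean of ages, in the interaction or in WT from 6 to 12 months.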

How the data were processed

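Long-RNA expression was read from 1 gene table per library, 31 in all. Per the submitters' processing notes, the tools named were cutadapt 1.18, HISAT2 2.1.0, StringTie 1.3.4d, BWA 0.7.17, bedtools 2.26.0 and FastQC, with mm10 and GRCm38 as builds. The notes do not say which step each tool served. Per the file headers, each deposited table gives the authors' TPM, FPKM and coverage signal per gene with GRCm38 coordinates; read counts were not used here. TPM is a level per transcript length with the same total in every library. The ratio of the authors' deposited coverage signal to their deposited FPKM served as relative depth. Short-RNA libraries were not analysed here.

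TPM rows were summed per gene ID and divided, within mouse and within HT-22 libraries, by a median of ratios factor (reference genes 17141 in mouse, 15757 in HT-22), which is called scaled TPM. Genes with a mean scaled TPM of at least 1 were tested on log2(scaled TPM + 1) with limma 3.58.1 (R 4.3.3; trended, robust), with 1 fit over all groups of a system. Calls are Benjamini-Hochberg adjusted p below 0.05 over all genes tested. The + 1 understates changes of low genes. The fit was tested on simulated data. Replicate numbers were not used as pairs in this fit. The 10 genes, the 64 pathway genes and the markers were chosen with earlier results of these data known. All 10 genes are named. Pathway genes are named where called, and beyond that where their values were seen to follow or depart from those of the 10 genes. Genes most like Nfe2l2 are the 5 with the highest Pearson r among genes with a mean scaled TPM of at least 5. The alternatives were TPM as deposited, quantile normalisation, a pseudocount of 0.1, no filter, a mean of at least 5, a replicate block, fits of the compared groups alone and leaving out each library. Leaving out 3 scramble libraries was added after seeing the data.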

Additional observations from a re-analysis of the deposited data

Results flagged for a closer look

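In the reverse peptide group with scramble LNA, 1 of 4 libraries, replicate 4, lay far above the other 3 for 7 of the 10 genes by Dixon's criterion. Its scaled TPM was 101.4 for Nfe2l2, 141.9 for Nqo1, 362.5 for Hmox1, 43.97 for Gclm, 62.09 for Gclc, 353.4 for Txnrd1 and 7.361 for Slc7a11. All 7 come from the same library, out of 20 sets of 4 values tested. That library was already singled out above because members were high in it, and genes of 1 library are not independent. The 7 therefore cannot be set against the rate of about 1 in 20 that chance gives for independent sets. The Aβ42 group with scramble LNA held 2 libraries at the higher level and 2 at the lower one, a shape that this criterion cannot mark.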

How the results depend on the processing

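Of the counts of genes or members under settings other than leaving out 1 library, 129 stayed within 1.5 times the reported count and 43 did not. On TPM as deposited, genes called numbered 4197 for Aβ42 against reverse peptide under anti-Hsf1 (members 2), 8766 for anti-Hsf1 against scramble with Aβ42 (members 9), 4379 for the HT-22 interaction (members 2), 10339 for APP against WT at 6 months (members 6), 1353 for the mean of ages (members 2), 5910 for the mouse interaction (members 6) and 286 for APP at 12 against 3 months. Quantile normalisation gave 1 gene for anti-Hsf1 against scramble with Aβ42, 134 for the mouse interaction and 0 members for APP at 12 against 3 months. A pseudocount of 0.1 gave 0 genes for anti-Hsf1 against scramble with Aβ42. With no filter the counts were 2, 2 and 0 for Aβ42 against reverse peptide under anti-Hsf1 and for anti-Hsf1 against scramble with reverse peptide and with Aβ42, then 34 at 3 months, 115 at 6 months (members 0), 26 over the mean of ages, 47 for the mouse interaction and 2 for WT from 6 to 12 months. A mean of at least 5 gave 49 genes at 12 months, 165 for the mouse interaction and 386 for APP at 12 against 3 months (members 0, Hmox1 being under that filter). Fits of the compared groups alone gave 4 genes at 3 months, 39 at 6 months (members 1), 146 for APP at 12 against 3 months (members 0) and 1 for WT from 6 to 12 months. Without the 3 scramble libraries, Aβ42 against reverse peptide called 1 gene under scramble and 4 under anti-Hsf1, and the HT-22 interaction 4. The split of calls into higher and lower went from 22 and 32 to 8 and 63 at 3 months, and from 21 and 22 to 1326 and 27 over the mean of ages, on TPM as deposited. The cause of these moves was not tested.

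Same-numbered replicates did not vary together (3 of 19 HT-22 pairs and 3 of 40 mouse pairs had a correlation above 0.1), so the numbers were not taken as pairs. With a replicate block the counts were 1 for Aβ42 against reverse peptide under scramble, 2 for anti-Hsf1 against scramble with Aβ42, 14 for the mean of ages and 130 for the mouse interaction, and the number of members called did not change in any contrast.

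Leaving out 1 library at a time, genes called ran from 0 to 2 for Aβ42 against reverse peptide under anti-Hsf1, 0 to 16 for anti-Hsf1 against scramble with Aβ42, 0 to 3 for the HT-22 interaction, 7 to 379 at 3 months, 66 to 513 at 6 months, 17 to 101 at 12 months, 10 to 143 for the mean of ages, 22 to 206 for the mouse interaction, 158 to 753 for APP at 12 against 3 months and 0 to 4 for WT from 6 to 12 months. Members called ran from 0 to 2 at 6 months, and from 0 to 1 for the mean of ages, the mouse interaction and APP at 12 against 3 months.

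Some signs turned, among them those of the largest HT-22 differences and of Sod1 at 6 months. Without the 3 scramble libraries, anti-Hsf1 against scramble with Aβ42 became 0.0122 for Nqo1, 0.0717 for Hmox1, 0.0863 for Gclc, 0.0684 for Txnrd1 and 0.154 for Slc7a11. At 6 months Sod1 became 0.0184 and Slc7a11 0.659 on TPM as deposited, and Slc7a11 0.0131 with quantile normalisation. Leaving out 1 library, Slc7a11 at 6 months ran from -0.1201 to 0.0418, Gclc from -0.0119 to 0.0596, and Gclm for Aβ42 against reverse peptide under anti-Hsf1 from -0.0231 to 0.0192.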

Other observations

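Over the 17 hippocampus libraries the genes most like Nfe2l2, by Pearson r of log2(scaled TPM + 1), were Tpp1 (a lysosomal peptidase, r = 0.80), Slc14a1 (a urea transporter, r = 0.78), Efemp2 (an extracellular matrix protein, r = 0.78), Cd74 (the invariant chain of antigen presentation, r = 0.76) and H2-K1 (a class I histocompatibility gene, r = 0.76). No gene of 10988 reached r = 0.9. Of the members with a mean scaled TPM of at least 5, Txnrd1 had r = 0.35, Prdx1 0.24, Sod1 0.17, Srxn1 0.07, Gclm -0.03, Gclc -0.08 and Slc7a11 -0.15. Fth1, the ferritin heavy chain, had r = 0.63. The libraries share genotype and age groups, so these values only describe likeness.

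Nfe2l1, the sister factor of Nrf2 that drives proteasome genes, was high in HT-22 libraries other than the 3 described above as well. It was at 101.8, 53.1, 114.1 and 88.7 scaled TPM with Aβ42 and scramble, 42.4, 40.4, 43.1 and 57.95 with reverse peptide and scramble, 45.0, 112.9 and 39.8 with reverse peptide and anti-Hsf1, and 41.5, 39.7 and 48.3 with Aβ42 and anti-Hsf1. It was singled out after its values were seen.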
